A study of Mus musculus with 2 samples.

Results

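The genes of the proteasome were followed in newly made and in older RNA of mouse embryonic stem cells (ESCs) of wild-type genotype. The members were all protein-coding transcripts, by the GENCODE M21 annotation of GRCm38, whose gene symbol is Psma, Psmb, Psmc, Psmd, Psme, Psmf or Psmg followed by a number. They were 96 of the 121429 transcripts in the table and 48 of its 21574 protein-coding genes, and they were found by name alone, not by any measured value. Feeder-depleted cells of the XY line DTCM23/49 were given 200 µM 4-thiouridine (4sU), an analogue of uridine taken up into RNA as it is made, for 10 min in medium with serum and leukemia inhibitory factor. RNA that carried 4sU was tagged with biotin and pulled out on streptavidin beads (the labeled library), and the RNA that stayed behind gave the unlabeled library. Each pool is 1 library, of biological replicate 1, so no value below has a replicate error, no test was possible, and all comparisons describe these 2 libraries across genes. The labels name the unlabeled library both preexisting and total RNA, and it was treated as unlabeled RNA.

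The proteasome is the barrel-shaped protease that degrades ubiquitin-tagged proteins in the cytosol and nucleus. Its 20S core is built of outer rings of alpha subunits (Psma) and inner rings of beta subunits (Psmb), some of which carry the proteolytic sites. The 19S cap, made of a ring of ATPases (Psmc) and of non-ATPase subunits (Psmd), binds, unfolds and feeds in the substrate. Other activators (Psme) can take the place of the cap, Psmf1 is an inhibitor, and Psmg proteins and some Psmd proteins are chaperones that help to assemble the complex. Subunits are built in fixed ratios into the complex, and pluripotent cells are known for high proteasome activity.

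The deposited values are relative abundances per length, called TPM by the authors for exons and introns separately, and they are given here in the deposited unit, of which each library holds 10 times the total of a TPM column. A gene's exon value is the sum over its coding transcripts. The table holds no read counts, so the depth is unknown and counting error could not be given. Introns took 15.4% of the labeled and 6.26% of the unlabeled library, and the exons of the member transcripts took 0.196% and 0.207%. All 10 ESC markers looked at, such as Pou5f1 and Nanog, were present, at 72.9 to 6580 in the unlabeled library. Marker sums there were 122.5 for 5 primitive endoderm genes (Dab2 at 108, Gata6 and Sox17 at 0) and 254 for 4 neural genes (Tubb3 at 157, Pax6 at 70.5). They were 51.7 for 4 blood genes (Cd3e at 51.2, Ptprc and Hbb-bs at 0) and 5.97 for 4 mesoderm genes. For 5 fibroblast genes the sum was 16.2 (Thy1 at 14.45, Col1a2, Col3a1 and Postn at 0). Some markers of other lineages were thus as high as the lowest ESC marker, Zfp42 (72.9).

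The promoters of 3 members are shown because they differ in the motifs discussed with the results by role. They are RefSeq sequences on GRCm38.p6, from 250 bases before to 50 after the annotated start, 5′ to 3′ on the strand of the gene, and capitals mark matches on either strand to TGACNNNGC, the core of the antioxidant response element that the proteasome gene activator NFE2L1 binds, or to CCGGAAG, an element of ETS factors. Psmb6, a catalytic beta subunit, lies at chr11:70525107-70525406 (plus strand) and holds 1 match to the first motif. Psma6, an alpha subunit, lies at chr12:55398575-55398874 (plus strand) and holds 3 matches to the second. Its other RefSeq promoter, chr12:55383972-55384271, at the start of its most abundant coding transcript, holds none. Psme3, an activator, lies at chr11:101315963-101316262 (plus strand) and holds 2 matches to the second.
Psmb6: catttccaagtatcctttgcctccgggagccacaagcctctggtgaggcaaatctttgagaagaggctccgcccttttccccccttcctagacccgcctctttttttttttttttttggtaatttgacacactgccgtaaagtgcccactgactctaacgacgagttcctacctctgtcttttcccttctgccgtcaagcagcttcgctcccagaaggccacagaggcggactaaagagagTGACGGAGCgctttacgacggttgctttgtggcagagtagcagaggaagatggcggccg
Psma6: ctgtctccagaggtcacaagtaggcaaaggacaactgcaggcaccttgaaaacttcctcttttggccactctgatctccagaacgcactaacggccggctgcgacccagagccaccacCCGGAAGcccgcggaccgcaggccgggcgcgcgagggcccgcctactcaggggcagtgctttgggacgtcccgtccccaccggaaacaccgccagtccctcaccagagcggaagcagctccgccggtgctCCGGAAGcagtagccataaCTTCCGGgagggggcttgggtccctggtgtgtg
Psme3: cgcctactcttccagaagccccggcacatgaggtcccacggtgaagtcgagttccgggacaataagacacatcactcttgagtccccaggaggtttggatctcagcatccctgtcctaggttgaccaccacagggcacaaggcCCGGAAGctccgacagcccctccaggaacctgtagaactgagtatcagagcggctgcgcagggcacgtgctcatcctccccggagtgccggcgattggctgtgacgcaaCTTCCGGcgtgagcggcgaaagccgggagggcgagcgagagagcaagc

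The first comparison asked how much of each gene's exon signal, which comes from spliced and unspliced RNA, was found among the RNA made in 10 min. For each gene the ratio of the labeled to the unlabeled exon value was taken on the log2 scale and set relative to the median of all 10330 protein-coding genes whose mean of the libraries was above 10 and whose values were both above 0. That median was -0.40, so a gene with equal values in both libraries stands at 0.40 above it. Of the 48 members 45 passed this filter, and Psmb8, Psmb9 and Psmb11 did not. Among the 45 the median was 0.60, 36 stood above the median of all genes, of which 50% do by construction, and 9 stood below it. At 2-fold or more, 16 members were above, or 35.6% beside 18% of all genes, and 5 were below, or 11.1% beside 11.3% of all genes. The 16 include Psmb10, which passed the filter only through its labeled value. The members' excess was thus on the labeled side, while their share on the other side was near that of all genes.

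**Figure D1:**
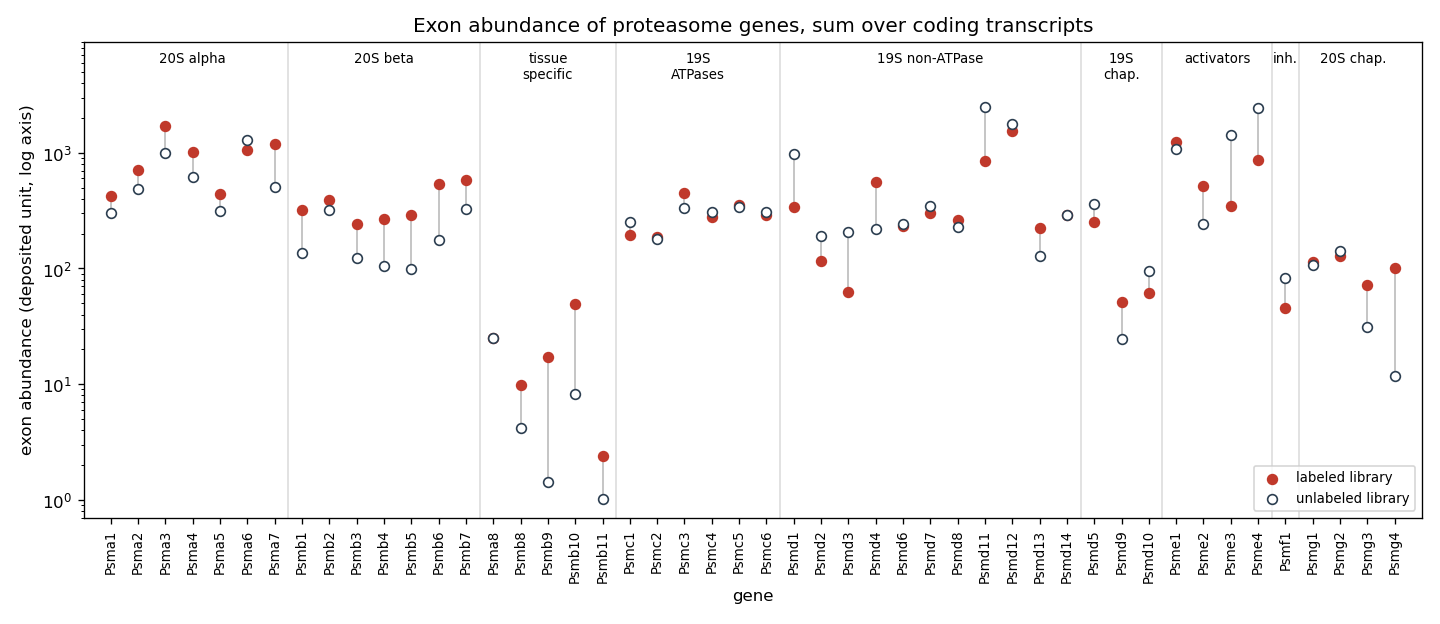
Exon abundance of the 48 proteasome genes (deposited unit, log axis) in the labeled library (filled points) and the unlabeled library (open points), 1 library each, by role; grey lines join the values of a gene. All 7 beta subunits were higher in the labeled library, and Psmd1, Psmd3, Psmd11, Psme3 and Psme4 were lower there by 2-fold or more relative to all genes.

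The 20S core had a higher median than the 19S cap. All 14 core genes were above the median of all genes, with a median of 1.20. Of them 9, or 64.3% beside 18% of all genes, were 2-fold or more above it and none below. Of the 17 cap genes 13 were above the median of all genes, and the cap median was 0.31. At 2-fold or more 2 cap genes were above, or 11.8% beside 18%, and 3 were below, or 17.6% beside 11.3%. The ranges overlapped, at 0.13 to 2.01 in the core and -1.32 to 1.75 in the cap. The medians differed by 0.89 on the log2 scale. With other filters, pseudocounts, transcript choices or a correction for leakage of unlabeled RNA into the labeled pool this difference lay between 0.88 and 1.07, and among members without a near-identical copy elsewhere in the genome it was 0.84. Against genes of like exon length it was 0.47. The core genes had a median spliced length of 983 bases and the cap genes of 1541, and the part of length in what remains was not tested.

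Beta subunits gave the highest ratios within the core. Of the 7, 6 stood 2-fold or more above the median of all genes, or 85.7% beside 18% of all genes. The median of the 7 was 1.64. Psmb6 and Psmb5, which carry the caspase-like and the chymotrypsin-like site, led them. Psmb6 was at 538 in the labeled and 177 in the unlabeled library, a log2 ratio of 2.01 relative to all genes. For Psmb5 the values were 288 and 98.4 (1.95). Psmb7, which carries the trypsin-like site, was at 583 and 328 (1.23). All 3 catalytic subunits were thus more abundant in labeled RNA. The structural subunits Psmb4 (268 and 106, 1.74), Psmb1 (319 and 135, 1.64) and Psmb3 (244 and 124, 1.38) lay in the same range. Psmb2 was the one beta subunit within 2-fold, at 390 and 317 (0.70). Against genes of like length 3 of the 7 beta subunits, Psmb1, Psmb4 and Psmb6, remained 2-fold or more above, beside 13.6% of all genes. The median of the 7 was then 0.95.

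Alpha subunits, which form the outer rings and the gate of the core, had a median of 0.92. Of the 7, 3 were 2-fold or more above the median of all genes, or 42.9% beside 18% of all genes. Psma7 had the highest ratio, with 1187 in the labeled and 510 in the unlabeled library (1.62). Psma3, at 1708 and 1003 (1.17), and Psma4, at 1010 and 619 (1.11), followed. Psma2 (705 and 490, 0.92), Psma5 (443 and 315, 0.89) and Psma1 (420 and 301, 0.88) lay close together below 2-fold. Psma6 differed from the other alpha subunits. It was the only one with less in the labeled than in the unlabeled library, 1055 against 1277, at 0.13 relative to all genes and -0.87 relative to genes of its length.

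The 6 ATPases of the cap were more alike than any other role with more than 1 gene past the filter. They spanned 0.03 to 0.81, all above the median of all genes and none past 2-fold. Psmc3 (448 labeled, 337 unlabeled) had the highest ratio and Psmc1 (194 and 252) the lowest. Between them lay Psmc2 (188 and 179), Psmc5 (355 and 340), Psmc6 (290 and 309) and Psmc4 (276 and 309). Across the 6, levels differed by at most 2.38-fold in the labeled and 1.90-fold in the unlabeled library.

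Non-ATPase subunits of the cap, by contrast, spread to both sides. Psmd4, the ubiquitin receptor also known as Rpn10, had the highest ratio among them, at 560 in the labeled and 220 in the unlabeled library (1.75). Psmd13 was next, at 226 and 128 (1.22). The lowest were Psmd3, at 62.9 and 208 (-1.32), Psmd11, at 846 and 2472 (-1.15), and Psmd1, a scaffold subunit, at 338 and 978 (-1.13). For these 3 the unlabeled library held the higher value by far, and they were the only cap subunits 2-fold or more below the median of all genes. Psmd14, the deubiquitinase of the cap, was nearly equal in both libraries, at 292 and 289 (0.42). Psmd8 (262 and 228), Psmd6 (234 and 241), Psmd7 (303 and 350) and Psmd12 (1543 and 1782) stood at 0.19 to 0.60, and Psmd2, the other scaffold subunit, at 116 and 192 (-0.33). Against genes of like length Psmd3 (-1.57) and Psmd11 (-1.64) stayed 2-fold or more below and Psmd1 (-0.80) did not.

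The 4 activators lay on both sides of the median of all genes. Psme1 and Psme2, which together form the interferon-inducible PA28 ring, were more abundant in labeled RNA, Psme1 at 1245 and 1082 (0.60) and Psme2 at 514 and 244 (1.48). Psme3, the nuclear PA28-gamma (plus strand, chr11:101316213-101323537, 11 exons in its most abundant coding transcript), had the lowest ratio of all members, at 349 in the labeled and 1428 in the unlabeled library (-1.63), which put it at percentile 1.97 of all genes tested. Psme4, the large activator PA200, was at 868 and 2423 (-1.08). Of this a 4-exon transcript of 576 bases held 463 and 1492, and the 47-exon transcript of 6491 bases held 295 and 661. The 2-fold call is for the sum, as the 47-exon transcript alone was within 2-fold of the median of all genes. The length used for Psme4 below is a weighted mean of 2303 bases. Relative to genes of like length Psme1 stood at -0.39, Psme2 at 0.48, Psme3 at -1.87 and Psme4 at -0.98, so that Psme1 was then below 0. The inhibitor Psmf1, at 45.9 and 82.3, stood at -0.44.

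The chaperones of assembly held the highest ratio among the 45 members that passed the filter. Psmg4, a small chaperone of the alpha ring (plus strand, chr13:34162964-34178168 for its most abundant coding transcript), was at 102 in the labeled and 11.8 in the unlabeled library, 11.4-fold above the median of all genes (3.51). It had a spliced length of 511 bases, the shortest among the members that passed, and stood at 2.16 relative to genes of like length. Psmg3 was at 71.7 and 31.1 (1.61), while Psmg1 (115 and 107, 0.50) and Psmg2 (129 and 143, 0.25) lay within 2-fold. Among the 3 chaperones of the cap Psmd9 (51.5 and 24.6, 1.47) was above, and Psmd5 (252 and 361, -0.12) and Psmd10 (60.9 and 94.5, -0.23) were near the median of all genes. The place of Psmd9 rested largely on a 2-exon transcript of 334 bases, at 25.4 and 2.81. Its other coding transcripts were at 15.18 and 8.26 and, for the longest coding sequence, at 10.96 and 13.48.

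Tissue-specific core subunits were low. Psmb8, Psmb9 and Psmb10 replace the catalytic beta subunits in the immunoproteasome, Psmb11 does so in the thymus, and Psma8 takes the place of Psma7 in the testis. Psmb10 (minus strand, chr8:105935739-105938444, 8 exons) was at 49.7 in the labeled and 8.28 in the unlabeled library, at 2.99, and 2.49 relative to genes of like length, second to Psmg4 among the 45. It passed the filter only through its labeled value, so its place among them is not read as a result. Psmb9 was at 17.1 and 1.44, Psmb8 at 9.77 and 4.18, and the single-exon Psmb11 at 2.40 and 1.02, all 3 under the filter. Psma8 was at 25.02 and 25.15. In both libraries each stood below its constitutive counterpart, Psmb10 below Psmb7, Psmb8 and Psmb11 below Psmb5, Psmb9 below Psmb6 and Psma8 below Psma7. Psmb9 shares 212 exon bases with Tap1 on the opposite strand, which was at 15.7 and 24.3.

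**Figure D2:**
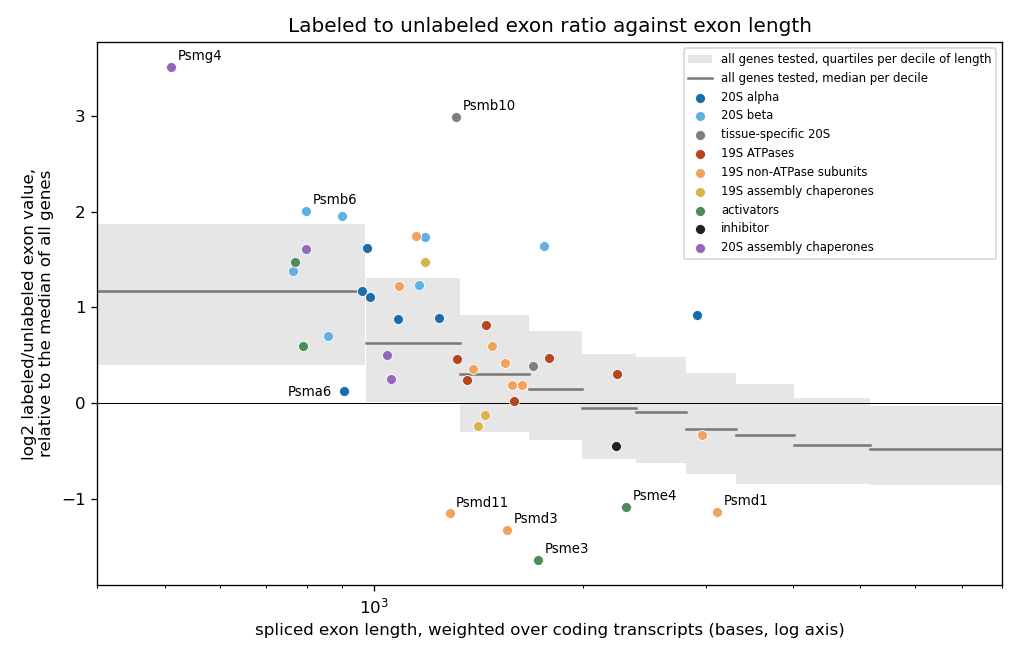
Log2 ratio of labeled to unlabeled exon value relative to the median of all genes (y axis) against spliced exon length in bases (x axis, log) for the 45 members that passed the filter, coloured by role; grey lines and bands are the median and quartiles of all 10330 genes tested in each decile of length. Ratios were lower in longer genes in both sets, and Psme3, Psmd3, Psmd11, Psmd1 and Psme4 lay below the band of their length.

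Exon length moved with the ratio over the whole table. Spearman's rho between them was -0.438 across 10330 genes and -0.614 across the 45 members, as a description, since the genes share the same 2 libraries. Members were short, with a median spliced length of 1311 bases beside 2379 in all genes tested. When each gene was set against the median of its bin among 20 bins of length, the members' median was 0.17 and 25 of 45 were above 0. At 2-fold 6 were above (Psma2, Psmb1, Psmb4, Psmb6, Psmb10 and Psmg4), beside 13.6% of all genes, and 3 were below (Psmd3, Psmd11 and Psme3), beside 9.82%. As shares these are 13.3% and 6.67% of 45, near those of all genes. The 6 above include Psmb10, which passed the filter only through its labeled value. Most of the excess of the members over all genes was thus not seen among genes of like length.

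Other genes for large complexes gave a scale for these values. The 81 cytosolic ribosomal protein genes that passed had a median of 1.85, with 71 of them 2-fold or more above the median of all genes, and of 0.76 relative to genes of like length (median length 743 bases). For 76 mitochondrial ribosomal protein genes the medians were 0.98 and 0.48 (1182 bases). For 7 chaperonin genes, whose products fold proteins in a ring, they were 0.20 and -0.17 (1788 bases). The proteasome genes, at 0.60 and 0.17, lay between the chaperonin and the mitochondrial ribosomal genes on both scales. The 20S core, at 1.20 and 0.44, was close to the mitochondrial ribosomal genes, and the 19S cap, at 0.31 and -0.03, was nearer to the chaperonin genes.

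Genes that act with the proteasome gave lower ratios. Of a list of 22 such genes 21 were in the table and 20 passed the filter, with a median of -0.36, and of -0.10 relative to genes of like length (median length 2496 bases), beside 0.17 for the members. At 2-fold 3 were above, among them Sem1 (103 labeled, 16.6 unlabeled, 3.03), a small cap subunit, and Rps27a (9097 and 2350, 2.35), a ubiquitin fusion gene, and 1 was below, the shuttle factor Rad23b (207 and 627, -1.20). Nfe2l1, the transcription factor that activates proteasome genes, was at 1325 and 3216 (-0.88). The cap-bound deubiquitinases differed from each other, with Uchl5 at 682 and 753 (0.26) and Usp14 at 386 and 936 (-0.88). The ubiquitin receptor Adrm1 (57.7 and 62.4, 0.29) and the core maturation factor Pomp (632 and 532, 0.65) lay within 2-fold.

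**Figure D3:**
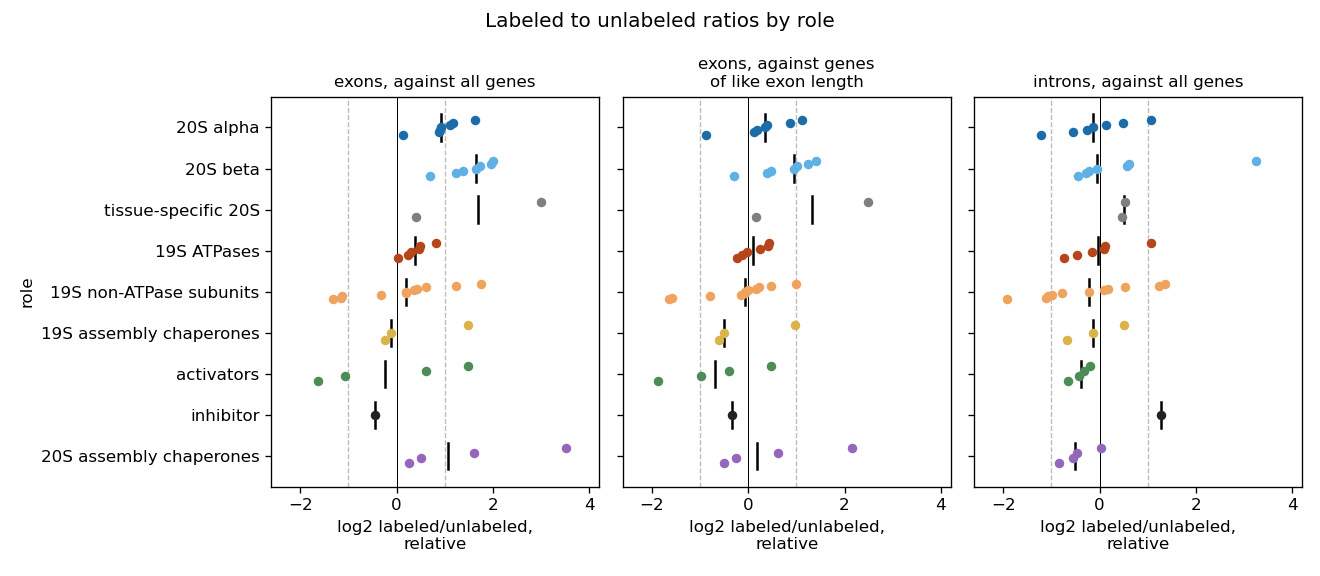
Log2 ratio of labeled to unlabeled values by role for the 45 members that passed, relative to the median of all genes for exons (left), to genes of like exon length for exons (middle) and to the median of all genes for introns (right); points are genes, black bars medians, dashed lines 2-fold. The beta subunits' median was 1.64 on the left, 0.95 in the middle and -0.06 on the right.

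Intron values gave no such order. The ratio of labeled to unlabeled intron value, relative to the median of 9812 genes, had a median of -0.16 over the 45 members, with 19 above 0. At 2-fold 6 members were above, or 13.3% beside 7.9% of all genes, and 4 were below, or 8.89% beside 10.1%. The 20S core (-0.10) and the 19S cap (-0.16) differed by 0.06. Psmb4 had the highest intron ratio (3.25), from 27.8 in the labeled and 0.72 in the unlabeled library. Across the 45 members the exon and the intron ratios had a rho of 0.009, and across all genes of -0.041.

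The second comparison was of the ratio of intron to exon value in each library, which stands for unspliced RNA over spliced and unspliced RNA together and is the measure on which the study's rate model rests. Members had little intron signal. Their median ratio was 0.106 in the labeled and 0.0332 in the unlabeled library, beside 0.465 and 0.0851 over 10064 genes with introns. Low medians were not particular to the proteasome. They were 0.0907 and 0.0154 for the chaperonin genes and 0.0269 and 0.00725 for the cytosolic ribosomal protein genes. For the mitochondrial ribosomal protein genes they were 0.197 and 0.0801. No match by length or level was made for this ratio. A labeled ratio of 1 or more, which the model cannot hold, was found in 2 of 45 members, or 4.44% beside 17.6% of all genes. In 4 of 45 members (Psmb10, Psmd4, Psmd13 and Psmg4), or 8.89% beside 5.8%, the unlabeled ratio was not below the labeled one. The lowest labeled ratios were those of Psme1 (0.0189), Psme2 (0.0225) and Psma7 (0.0262). The highest after Psmd13 were those of Psmf1 (1.15) and Psma8 (0.591), with Psmd3 next (0.575). In unlabeled RNA Psmd1 was lowest (0.00360), with 36.4 labeled and 3.52 unlabeled in its introns against 338 and 978 in its exons.

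**Figure D4:**
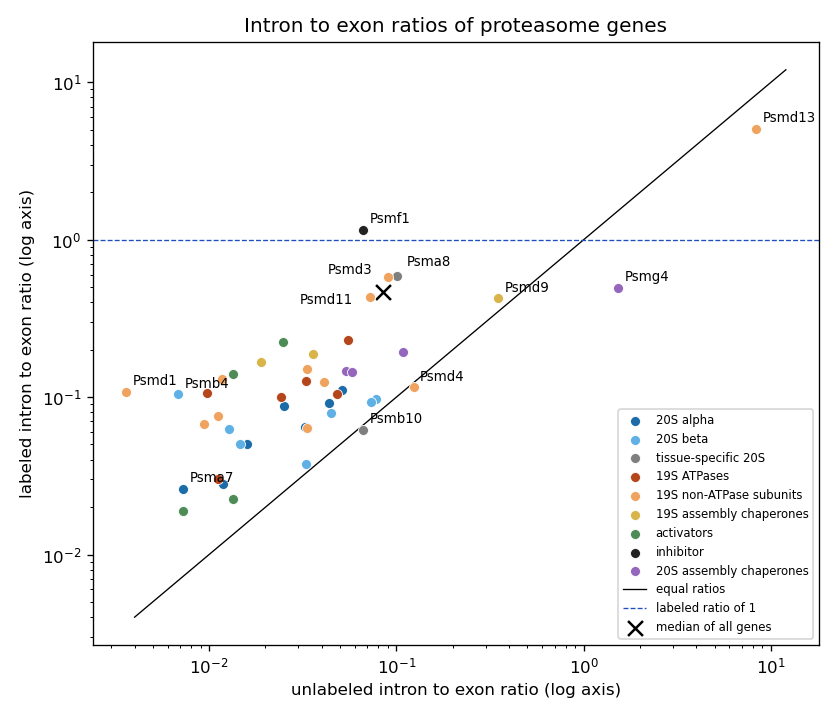
Labeled (y axis) against unlabeled (x axis) intron to exon ratio, both log axes, for the 45 members that passed the filter, coloured by role; the solid line marks equal ratios, the dashed line a labeled ratio of 1 and the cross the median of all genes. Most members lay to the lower left of the cross, and Psmd13, at 5.04 labeled and 8.28 unlabeled, lay far to the upper right.

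Psmd13 stood apart in this measure. Its introns summed to 1137 in the labeled and 1057 in the unlabeled library against exons at 226 and 128, so the ratio was 5.04 and 8.28. An annotated processed pseudogene, Gm15542, lies inside an intron on the same strand (chr7:140890887-140892080) and is 99.4% identical over 1194 bases to Dnaja1, a chaperone gene whose exons were at 6783 and 8347. In the table Gm15542 was at 1526 and 1466. The 4 coding transcripts of Psmd13 that span it had intron values of 215 to 421 in the labeled and 198 to 419 in the unlabeled library. The coding transcript that does not span it had 61.3 and 6.32. Its intron to exon ratios were 1.19 labeled and 0.232 unlabeled, still above the members' medians. An exon of another gene lies in an intron of 15 members, and without those members the median ratios were 0.104 and 0.033.

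The third comparison was of levels, which are per length and so can be set side by side within a library. Across the 31 subunits of the constitutive core and cap the exon value had a median of 338 in the labeled library, from 62.9 (Psmd3) to 1708 (Psma3), a 27.2-fold range. In the unlabeled library the median was 309, from 98.4 (Psmb5) to 2472 (Psmd11), a 25.1-fold range. The quartiles lay closer, at 265 and 572 in the labeled and 200 and 420 in the unlabeled library, so the wide ranges rest on the extremes. Over the 45 members that passed the filter, which include genes outside the core and cap, the log2 values of the 2 libraries had a Pearson correlation of 0.815. Transcripts of a gene had alike values (a median SD of log2 of 0.457 over the 23 members with more than 1 coding transcript), and the sum moved with how many are annotated, with a rho of 0.316 over 45 members and 0.255 over all genes tested. With only the transcript with the longest coding sequence the medians were 288 and 241, from 38.5 (Psmd3) to 866 (Psma7) in labeled and from 22.9 (Psmd13) to 978 (Psmd1) in unlabeled RNA. Psmd11, with 6 coding transcripts, was then at 158 and 544, and Psme4, with 3, at 295 and 661. The ranges of 22.5-fold and 42.8-fold stayed wide, with quartiles of 179 and 410 in labeled and 130 and 334 in unlabeled RNA. The unlabeled minimum there is 1 of 5 coding transcripts of Psmd13, which sum to 128.

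Near-identical copies bear on some of these levels. For 9 members (Psma3, Psma4, Psma5, Psmb3, Psmb5, Psmc1, Psmd2, Psmd11 and Psme2) another annotated gene matched at least 95% over 200 bases or more, 17 copies in all, of which 13 are processed pseudogenes and 15 are in the table. Psmb5, at 288 labeled and 98.4 unlabeled, had the copy Gm3375 at 260 and 116. Psma3, at 1708 and 1003, had Gm13835 at 982 and 587. Psme2, at 514 and 244, had Psme2b at 208 and 73.3. How reads were divided between these genes cannot be read from the table, so the levels of these 9 members are uncertain. The same holds for the 12 members whose exons overlap those of another gene, such as Psmb7, which shares 405 exon bases with Nek6 (97.2 and 58.2) on the other strand. Use of strand in the counting is not given in the sources used here, and for Psmb5, Psmd1 and Psmg3 an overlapping gene lies on the same strand.

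The table also lists transcripts of the members that are not protein coding, 73 with a retained intron, 32 processed transcripts, 19 subject to nonsense-mediated decay and 1 of the annotation's class TEC. They held a median of 34.5% of a member's exon total in the labeled and 32.9% in the unlabeled library, beside 21.3% and 16.3% over all genes tested. Of the 31 members with any such value 15 had a higher share in labeled RNA and 16 a lower one, whereas in all genes 4213 were higher and 2168 lower. Psmb4 had the highest share, 81.3% and 79.6%, all of it in retained-intron transcripts. Retained-intron transcripts alone held a median of 7.40% and 1.18%, which are the values of 1 gene, Psmd9. Of the 23 members with any, 12 had a higher share of them in labeled RNA, beside 3341 of 4682 genes. Since transcripts of a gene had alike values, these are shares of the table's total and not of molecules. The most abundant coding transcript held a median of 51.9% and 50.3% in the 23 members with more than 1, and the largest shift was in Psmd9, where 1 transcript held 49.3% in labeled and 11.4% in unlabeled RNA.

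Finally the ratios were entered in the rate model, in which transcripts are made, spliced and degraded at constant rates, and which gives a rate of degradation from the labeled and unlabeled ratio. Of 90 member transcripts (46 genes) that had a mean exon value above 1 and no value of 0, 9 had 1 solution, 1 had 2, and 68, or 75.6%, had none, beside 38.1% of 31386 coding transcripts. The other 12 lay outside the domain of the model, 6 because the labeled ratio reached 1 or more, and 6 because the unlabeled ratio was not below it. These 12 were 13.3% of the member transcripts, beside 33.3% of all, and within the domain 87.2% of 78 member transcripts had no solution, beside 57.2% of 20920. For transcripts without a solution the misfit was minimised over 1 variable, with the other set by the study's equation, which is not the nearest point of the model. These fits missed the observed ratios by a median distance of 1.77 in natural log units, beside 0.744 for all coding transcripts without a solution. Over the 78 with a rate the median time for degradation of 50% of the RNA was 44.5 min, beside 18.98 min over 20920 transcripts. This value rests on the fitting rule, as it was 4.55 min when both variables were fitted and 18.8 min when the second library was taken as total RNA. No order of stability among subunits is read from it.

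The motifs marked above were counted over the members' promoters. RefSeq promoters were found for 40 of the 48 members (43 promoters). CCGGAAG was in 15 of the 43, or 34.9%, beside 11.96% of 20007 promoters of coding genes, and in 14 of the 40 genes. It was in 9 of 14 cap genes and in 1 of 11 core genes, Psma6, the alpha subunit with the lowest ratio. The members with it included some with high ratios (Psmd4, Psmg3 and Psmd13) and some with low ones (Psme3 and Psme4). The 14 members with a match had a median ratio of 0.25, and the 23 without one that passed the filter of 0.92. Within the cap the medians were 0.31 for the 9 with and 0.42 for the 5 without it. Relative to genes of like length the medians with and without it were -0.10 and 0.35 over the members, and -0.01 and -0.03 within the cap. TGACNNNGC was in 6 promoters, or 14.0%, beside 13.1% of all, those of Psmb5, Psmb6, Psmc6, Psmd9, Psmd12 and Psme4, and it was in 2 of 11 core and 2 of 14 cap genes. These are counts of letters in a window, and nothing about binding follows from them.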

How the data were processed

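Each pool of mouse ESC RNA, labeled or unlabeled, was measured in 1 library. The authors removed ribosomal reads, aligned the others to exons and introns of mm10 (GRCm38) and quantified them. The submitters' processing notes name STAR 2.5.0 and RSEM. The deposited values are a signal of relative abundance per length, called TPM, and each column sums to 10 times what TPM would. Read counts were not used here, so depth is unknown and precision could not be computed.

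Exon values were summed over protein-coding transcripts by gene (GENCODE M21, which held 90.9% of the transcripts). Genes with a mean above 10 and both values above 0 entered the comparison, which has no statistical test. A call meant 2-fold from the median of all genes. Length was treated with 20 bins. Leakage was 0.211 times the unlabeled value, from percentile 1 of the labeled to unlabeled ratio. Rates used the study's equations on 4000 grid points, and the scripts were tested on simulated data. Copies were sought with BLAST 2.17.0, with a minimum of 95% identity over 200 bases. Motifs were searched on both strands. Alternatives were other filters, pseudocounts, transcripts and references. The members, the lists and the rule for named genes were chosen with earlier results of these data known. Every member was named; the rule asked for the 3 highest and 3 lowest in each ratio, the extremes of each role, and the catalytic, tissue-specific, activator, inhibitor and chaperone genes. Other replicates were not analysed here. The values of 1 gene of the pathway list are not reported here. Scripts ran in Python 3.11.15 with scipy 1.17.1, pandas 2.3.3, matplotlib 3.10.9 and numpy 2.4.6.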

Additional observations from a re-analysis of the deposited data

How the results depend on the processing

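Of 72 alternative values, 59 were counted as near the value reported, 12 moved and 1 reversed its sign. A median counted as near inside a 95% interval drawn from the spread over members or their transcripts, which is not a replicate error. A count did so within a set fold. This rule is wide, as 59.6 min with the most abundant transcripts counted as near 44.5 min. The number of members 2-fold or more below all genes was 2 with a mean above 100. Relative to genes of like exon length the members' median was 0.166, with 6 above and 3 below 2-fold, and with intron values it was -0.159, with 6 above. These comparisons with length and introns, the longest coding sequence, and leaving out members with copies or nested exons were chosen after seeing the data. The median level of the core and cap subunits was 705 labeled and 519 unlabeled over all biotypes. The median time for degradation of 50% was 4.55 min with both variables fitted and 18.8 min with the second library taken as total RNA. With the most abundant transcript of each gene 37 had no solution, of 45. Retained-intron transcripts alone held 7.4% and 1.18%. For the moves other than those from fewer transcripts or genes the cause was not tested. No paired analysis was possible because each pool has 1 library. Unknown depth limits the low members most, such as Psmb8, Psmb9, Psmb10, Psmb11 and Psmg4.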
